A study of Mus musculus with 6 samples.

Results

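Adipoq, Cfd, Cidec, Adfp, Car3 and Aqp7 are 6 genes of the fat cell that encode secreted proteins, lipid droplet proteins and abundant adipocyte proteins. They were taken by symbol from the annotation of the array, where 9 of the 29922 probes carried one of these names, 6 of 16675 annotated genes. Adipoq, Cfd, Cidec and Adfp had 1 probe each, Car3 had 2 and Aqp7 had 3. The samples came from ob/ob mice (B6.V-Lepob/J), which lack functional leptin. All animals were fasted for 4 h and given glucose at 1 g/kg into the peritoneum. MCSE, an extract of the plant Momordica charantia (bitter melon), or phosphate-buffered saline (PBS) was given by mouth 15 min ahead of the glucose, and tissue was taken 4 h after it. The 6 one-colour arrays were 1 each for MCSE liver, PBS liver, MCSE adipose, PBS adipose, MCSE muscle and PBS muscle. The labels gave no age or sex, and did not say whether RNA of several mice was pooled. The comparisons ask how bright these genes were on each array, and whether they differ between MCSE and PBS and between the liver and muscle labels.

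White adipocytes store triglyceride in a single large lipid droplet and release hormones and enzymes into the blood. Droplets are coated by proteins that control access of lipases, and the glycerol freed by lipolysis leaves through a channel. Muscle can contain fat cells in or around the tissue, and in obesity muscle and liver cells also store lipid in droplets of their own. Among the genes studied, Adipoq encodes the hormone adiponectin and Cfd encodes adipsin, the complement factor D protease. Cidec (also Fsp27) encodes a protein that helps droplets fuse and enlarge, and Adfp (now Plin2) encodes a droplet coat protein found in many cell types. Car3 encodes carbonic anhydrase 3, abundant in adipocytes and in slow-twitch muscle fibres. Aqp7 encodes the glycerol channel aquaglyceroporin 7, which is also known from the kidney tubule.

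The sequences directly before the transcription start are shown for the 4 genes that passed the test between liver and muscle labels described below. Each is 250 bases, from RefSeq on GRCm38.p6, written 5′ to 3′ on the strand of the gene. Adipoq lies at chr16:23146286-23146535 on the plus strand and Cfd at chr10:79890603-79890852 on the plus strand. Cidec lies at chr6:113435761-113436010 on the minus strand, the first of its 2 windows, and Adfp at chr4:86670060-86670309 on the minus strand. Capitals mark CCAAT boxes and AGGTCA, the core element bound by many nuclear receptors, on either strand.
Adipoq: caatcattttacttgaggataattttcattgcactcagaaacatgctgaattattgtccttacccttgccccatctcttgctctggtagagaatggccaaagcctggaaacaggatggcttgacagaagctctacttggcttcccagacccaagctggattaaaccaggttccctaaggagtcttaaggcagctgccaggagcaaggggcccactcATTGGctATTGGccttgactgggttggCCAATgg
Cfd: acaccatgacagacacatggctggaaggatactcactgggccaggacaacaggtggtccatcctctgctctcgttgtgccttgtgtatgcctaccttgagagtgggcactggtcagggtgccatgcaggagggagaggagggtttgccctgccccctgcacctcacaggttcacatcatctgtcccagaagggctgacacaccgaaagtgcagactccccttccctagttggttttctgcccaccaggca
Cidec: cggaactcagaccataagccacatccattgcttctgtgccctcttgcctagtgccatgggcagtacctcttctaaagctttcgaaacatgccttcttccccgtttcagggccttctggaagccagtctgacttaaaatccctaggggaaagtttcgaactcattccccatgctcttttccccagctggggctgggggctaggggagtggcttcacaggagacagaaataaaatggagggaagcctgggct
Adfp: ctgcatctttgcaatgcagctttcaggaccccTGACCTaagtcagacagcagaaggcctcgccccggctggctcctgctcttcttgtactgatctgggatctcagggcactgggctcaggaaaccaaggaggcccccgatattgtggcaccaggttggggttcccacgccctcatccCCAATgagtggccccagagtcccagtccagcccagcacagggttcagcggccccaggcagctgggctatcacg

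The Adipoq window held 3 CCAAT boxes, beginning between 34 and 7 bases before the start. The Adfp window held 1 CCAAT box, 73 bases before the start, and 1 AGGTCA element, 218 bases before it. CCAAT was found in 33.8% and AGGTCA in 14% of 32851 windows of the same length. The windows of Cfd and Cidec held neither. A TATAAA element (12.4% of windows), the direct repeat of AGGTCA with 1 base between its copies (0.0335%, each of which also counts under AGGTCA) and the palindrome TTGCGCAA (0.164%) were searched on both strands as well, and these letters were in none of the 4 windows. The 2 Aqp7 windows overlapped each other and held 1 and 2 AGGTCA elements. Windows were found for 5 of the 6 genes.

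Values are log2 of the deposited normalized intensity, on which the median of all probes was 8.95, the upper quartile 10.2 and the brightest probe 16.41. The deposited values shared 1 distribution on all arrays. Array pairs correlated at 0.982 between MCSE adipose and MCSE liver, 0.958 between the muscle arrays and 0.926 between the liver arrays. The PBS adipose array correlated with the other arrays at 0.307 to 0.517 only and stood apart from them. Hepatocyte markers had a median of 11.42 on the MCSE adipose array, 11.53 on MCSE liver and 11.64 on PBS liver. Kidney markers had medians of 12.07 on MCSE adipose, 12.25 on MCSE liver and 10.92 on PBS liver. The words "liver", "adipose" and "muscle" here therefore name labels.

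Adipoq, Cfd, Cidec and Adfp were brightest on the 2 liver arrays and the MCSE adipose array, lower on the muscle arrays and lowest on the PBS adipose array. Adipoq lay at 14.56 and 14.59 on the MCSE and PBS liver arrays, 14.58 on MCSE adipose, 10.50 on PBS adipose, and 13.54 and 13.17 on the MCSE and PBS muscle arrays. MCSE minus PBS on the liver arrays was -0.03, within the SD per probe of 0.611 described below, and MCSE adipose was 0.02 above MCSE liver. That SD is one of MCSE minus PBS differences on the liver arrays, so it gives no error for the adipose value. The lowest Adipoq level stood on the array labelled PBS adipose. Cfd lay at 14.97 and 14.50 on the MCSE and PBS liver arrays, 14.81 on MCSE adipose, 8.59 on PBS adipose, and 12.89 and 12.75 on the MCSE and PBS muscle arrays. Both secreted factors were therefore well above the upper quartile on the muscle arrays, and Cfd was below the median of all probes on the PBS adipose array.

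The droplet genes Cidec and Adfp shared 1 order of arrays, which the secreted factor Adipoq had as well. Cidec lay at 15.27 and 15.56 on the MCSE and PBS liver arrays, 15.45 on MCSE adipose, 8.53 on PBS adipose, and 12.57 and 12.35 on the MCSE and PBS muscle arrays. Adfp lay at 12.66 and 13.07 on the MCSE and PBS liver arrays, 12.93 on MCSE adipose, 8.41 on PBS adipose, and 11.19 and 9.97 on the MCSE and PBS muscle arrays. For both genes, PBS liver, MCSE adipose and MCSE liver came first in that order, followed by MCSE muscle, PBS muscle and PBS adipose. The muscle arrays lay further apart for Adfp, whose PBS muscle value was below the upper quartile.

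Car3 was near the top of the scale on 5 arrays. Its brighter probe (mMC022149) lay at 15.82 and 15.47 on the MCSE and PBS liver arrays, 15.93 on MCSE adipose, 8.56 on PBS adipose, and 15.45 and 14.98 on the MCSE and PBS muscle arrays. The other probe (mMR028227) lay between 15.51 and 15.78 on the same 5 arrays, a range of 0.27, and at 7.96 on PBS adipose. Both probes lay within 1.5 of the brightest value of any probe on these 5 arrays.

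The 3 Aqp7 probes did not agree. The brightest on average (mMR029498) lay at 13.42 on the PBS adipose array, at 10.64 on MCSE adipose, at 9.62 and 9.63 on the MCSE and PBS liver arrays, and at 10.35 and 9.64 on the MCSE and PBS muscle arrays. It was the only one of the 9 probes with its highest level on PBS adipose. The next probe (mMC022819) lay at 10.79 and 10.34 on the MCSE and PBS liver arrays, 10.87 on MCSE adipose, 9.60 on PBS adipose, and 8.71 and 8.68 on the MCSE and PBS muscle arrays. The dimmest (mMC014130) lay at 9.58 and 9.01 on the MCSE and PBS liver arrays, 10.72 on MCSE adipose, 9.03 on PBS adipose, and 8.25 and 8.54 on the MCSE and PBS muscle arrays. On both muscle arrays these 2 probes lay under the overall median, and on the other 4 arrays above it.

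**Figure D1:**
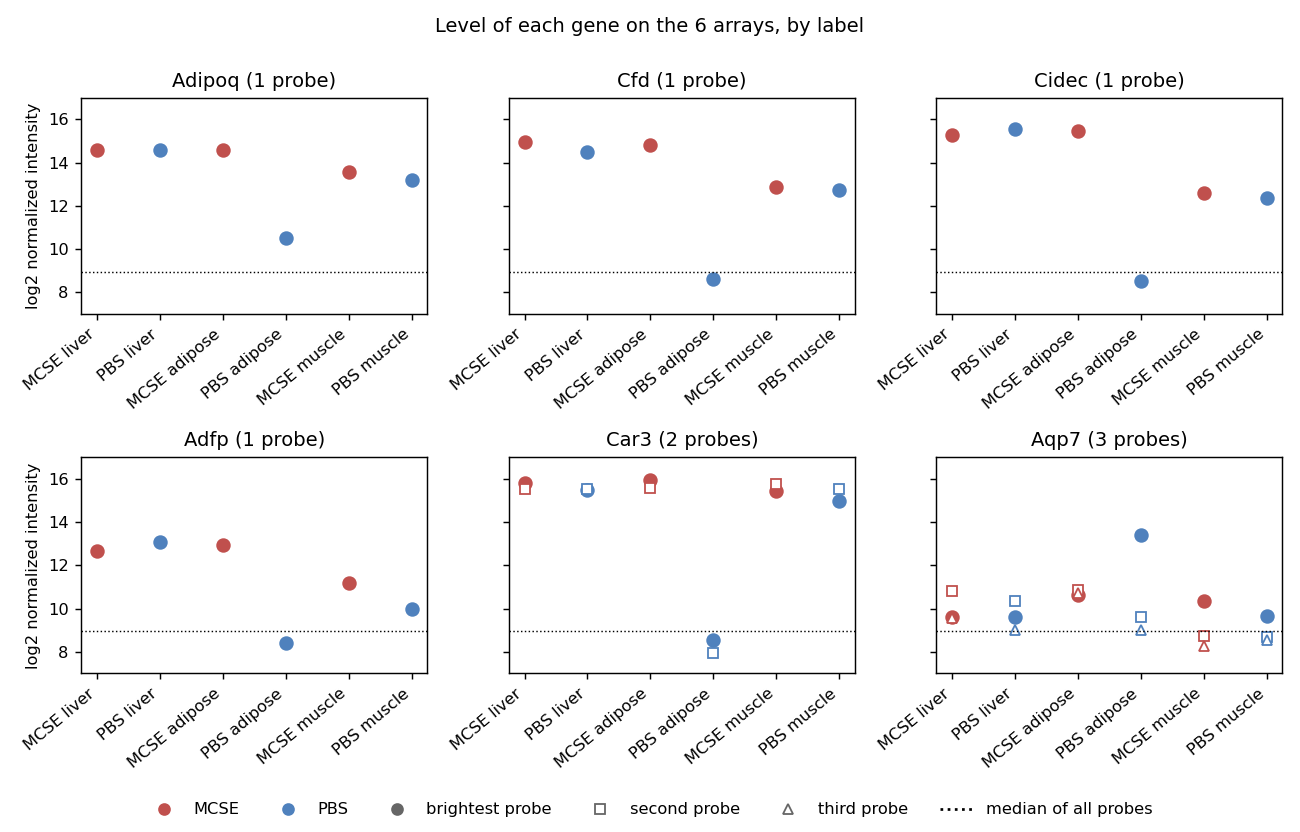
Log2 normalized intensity of every probe of the 6 genes (panels) on each of the 6 arrays, ordered by tissue label with MCSE before PBS; each point is 1 probe on 1 array, filled for the brightest probe of the gene. Adipoq, Cfd, Cidec, Adfp and Car3 were lowest on the PBS adipose array, at 7.96 to 10.50, while the brightest Aqp7 probe was highest there, at 13.42.

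Between the liver and muscle labels, 4 of the 6 genes were higher on the liver arrays and 0 were lower. The comparison used limma on 12475 genes, with the MCSE and PBS array of a tissue as its 2 samples, and called genes at an adjusted p below 0.05 and at least 2-fold. Cidec was higher by 2.95 ± 0.29 on the log2 scale (SE, 2 arrays per label; 7.75-fold), with an adjusted p from limma of 0.00219. Adfp was higher by 2.28 ± 0.45 (4.86-fold, adjusted p 0.0158 from limma), Cfd by 1.92 ± 0.30 (3.78-fold, adjusted p 0.00811) and Adipoq by 1.22 ± 0.29 (2.33-fold, adjusted p 0.0272). For these 4 genes both liver arrays lay above both muscle arrays, as they also did for the brighter Car3 probe, which was not called. On the other Car3 probe MCSE muscle, at 15.78, lay above both liver arrays, at 15.54 and 15.55. The brightest Aqp7 probe lay lower on both liver arrays, 9.62 and 9.63, than on both muscle arrays, 10.35 and 9.64. The share of all genes with such a separation was not counted, so it is not read as a result. Of all genes tested, 15.1% were called higher and 9.71% lower in liver, so calls of this kind were frequent. The median difference was 1.57 over the 6 genes and 0.04 over all genes.

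Car3 and the brightest Aqp7 probe did not pass. Car3 was at 0.43 with a 95% interval of -0.33 to 1.19, and an adjusted p from limma of 0.33. Its other probe was at -0.10 with an interval of -0.76 to 0.57. Aqp7 was at -0.37 on its brightest probe, with an interval of -1.18 to 0.44 and an adjusted p of 0.429. With each probe tested on its own, a fit chosen after the data were seen in which 14.6% of probes were called higher, the second Aqp7 probe was higher in liver by 1.87 ± 0.30 (SE, limma adjusted p 0.00795) and the dimmest was at 0.90 ± 0.32 (adjusted p 0.0836). The direction of Aqp7 thus differed between probes of the same gene.

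The gap between liver and muscle was most unlike between the treatments for Adfp. Adfp was 1.47 higher in liver within the MCSE arrays and 3.09 higher within the PBS arrays. For Cidec the gaps were 2.70 with MCSE and 3.21 with PBS, for Cfd 2.08 with MCSE and 1.75 with PBS, and for Adipoq 1.03 with MCSE and 1.41 with PBS. Whether these gaps differ was not tested, with 1 array per tissue and treatment.

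The calls rested on the spread of the 4 arrays. In a fit of all 6 arrays, where the unlike adipose arrays enter the spread, 0 of the 6 genes and 0 of 13864 genes were called higher in liver (limma, 1123 of all genes at an unadjusted p below 0.05), and the adjusted p of the 4 genes lay between 0.689 and 0.834. Without the PBS muscle array only Cidec was called, Adfp, Cfd and Adipoq having adjusted p of 0.0856, 0.0684 and 0.215. Adipoq was not called without the MCSE muscle array either (adjusted p 0.121), nor Adfp without the PBS liver array (0.0604).

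**Figure D2:**
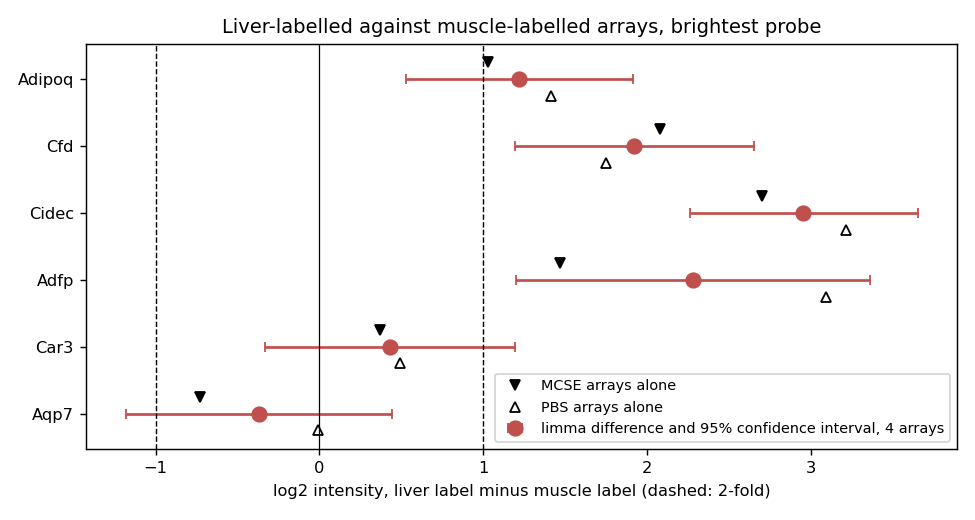
Liver minus muscle difference of log2 intensity for the brightest probe of each gene; circles and bars give the limma estimate and 95% confidence interval from 4 arrays, triangles the difference within the MCSE arrays and within the PBS arrays. Intervals of Cidec, Adfp, Cfd and Adipoq lay above 0 and those of Car3 and Aqp7 included it.

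Other genes of adipocytes stood higher on the liver labels as well. Of 11 white adipocyte markers tested, 9 were called higher and 0 lower, against 15.1% and 9.71% of all genes, with a median difference of 2.34. Sncg (3.41 ± 0.28), Thrsp (3.07 ± 0.29), Mest (2.68 ± 0.34) and Lep, the leptin gene (2.53 ± 0.37), had the steepest differences. The summed intensity of these markers was 258593 on MCSE liver, 217884 on PBS liver, 249403 on MCSE adipose, 23832 on PBS adipose, 98547 on MCSE muscle and 129668 on PBS muscle. All 11 reached the median of all probes on every array except PBS adipose, where 7 did and Pparg and Mest lay below the lower quartile. In tissue RNA, fewer cells of a type and less RNA per cell cannot be told apart. Of 6 brown adipocyte markers tested, 0 were higher in liver and 2 were lower, Cox7a1 (-4.36 ± 0.39) and Cox8b (-3.18 ± 0.30), both also known as muscle subunits of cytochrome oxidase.

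Markers of other tissues moved between the same arrays. Hepatocyte markers were called higher in liver for 7 of 12 and lower for 0, with Ttr at 4.83 ± 0.37 and Alb at 4.18 ± 0.61. Kidney markers were called higher for 12 of 18 and lower for 1 (Pvalb, also a fast-fibre gene), with a median of 2.30, Slc34a1 at 4.91 ± 0.53 and Miox at 4.88 ± 0.46. All 14 fast muscle markers tested were lower in liver, with a median of -6.49, as were 8 of 11 slow muscle markers. Macrophage markers were higher for 3 of 10 and lower for 1, endothelial and stromal markers higher for 4 of 10, and pancreas markers higher for 1 of 3. In the same fit 15.1% of all genes were called higher and 9.71% lower, and no list was tested against those shares. The part of these tissues in the differences of the 6 genes was not tested.

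Of the other secreted factors, 10 of 14 were higher in liver and 2 were lower, against the 15.1% and 9.71% of all genes. The retinol carrier Rbp4 (3.68 ± 0.39), Angptl4, an inhibitor of lipoprotein lipase (2.99 ± 0.31), Lep and Ccdc80 (2.24 ± 0.41) led them. Of 21 other droplet genes, 8 were higher and 2 were lower, with a median of 0.52. The lipases Ces3 (now Ces1d, 2.63 ± 0.36) and Mgll (2.47 ± 0.29) and the caveolar protein Ptrf (now Cavin1, 2.38 ± 0.28) were higher, while 1110028A07Rik (now Fitm1), which acts in droplet formation and is known from muscle, was lower (-3.15 ± 0.41). Of 19 genes of fatty acid and glycerol handling, 7 were higher and 1 was lower. Dgat2, which makes triglyceride, was higher by 2.55 ± 0.29, and Gyk, which phosphorylates glycerol, by 2.21 ± 0.39. Of 12 adipocyte regulators, 5 were higher, among them the transcription factors Cebpa (2.04 ± 0.44) and Pparg (1.86 ± 0.40), and 2 were lower, among them Rxra (-1.58 ± 0.31). In the fit of all 6 arrays none of these genes of the 4 lists was called (0 in each list).

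In muscle, Adfp was the member with the clearest difference between MCSE and PBS. Its intensity was 2335 with MCSE and 1006 with PBS, a difference of 1.22 on the log2 scale or 2.32-fold. Of the 10711 measured genes, those whose brightest probe was at or over the overall median on either array, 2.53% had a greater difference. At least 2-fold higher were 1 of the 6 members and 3.9% of these genes, and at least 2-fold lower 0 members and 1.88% of genes (5.78% in either direction). With 1 array per group there was no test and no replicate check. As a gauge of error, probes of 1 gene were set against each other, which gave an SD per probe of 0.517 for muscle and 0.611 for liver. It holds no variation between mice.

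The 5 other members were less than 2-fold apart in muscle. Adipoq was 0.36 higher with MCSE, Cfd 0.14 and Cidec 0.22, each within the SD per probe. Car3 was 0.47 higher on its brighter probe and 0.27 on the other, both also within that SD. Aqp7 was 0.71 higher on its brightest probe, 0.03 on the second and -0.29 on the dimmest, so the direction was not shared by its probes. The median over the 6 brightest probes was 0.42 and that over all measured genes -0.05, with 1 array per group and no test.

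The white adipocyte markers had no shift like that of Adfp on the muscle pair. Of 11 measured, 0 were 2-fold higher or lower and 6 lay above 0, with a median of 0.02. Their summed intensity was 98547 on the MCSE array and 129668 on the PBS array. That sum is set mostly by the 2 brightest genes, Fabp4 (-0.48) and Gpd1 (-0.64). Lep was at -0.05 and Plin (now Plin1), the droplet coat protein of adipocytes, at 0.41. Slow muscle markers did differ, with 8 of 11 at least 2-fold higher, against 3.9% of measured genes. Their summed intensity was 297595 with MCSE and 118211 with PBS. Kidney markers were 2-fold higher for 2 of 13, Kap at 3.20 and Slc34a1 at 1.12, with summed intensities of 84105 with MCSE and 60449 with PBS. The part of slow fibres and kidney RNA in the values of Adfp, Car3 and Aqp7 was not tested.

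On the liver arrays none of the 6 members reached 2-fold (0 higher, 0 lower), where 8.27% of 11342 measured genes were higher by that much and 6.01% lower (14.3% in either direction). Cfd had an intensity of 32189 with MCSE and 23129 with PBS, 0.48 higher on the log2 scale. Adfp had 6461 with MCSE and 8585 with PBS, a difference of -0.41, and Cidec 39517 with MCSE and 48156 with PBS, a difference of -0.29. Adipoq differed by -0.03. Each lay within the SD per probe of 0.611. Car3 was 0.35 higher on its brighter probe and at -0.01 on the other. Aqp7 was at -0.01, 0.45 and 0.56 on its brightest, second and dimmest probes. Kidney markers were 2-fold higher for 9 of 18 on this pair, with summed intensities of 240898 with MCSE and 144184 with PBS, and their part in the Aqp7 values was not tested. Slow muscle markers were 2-fold lower for 5 of 7 and above 0 for 0, with a median of -1.47, Mb at -4.14 and Myl3 at -2.89. Their summed intensity was 9730 with MCSE and 28634 with PBS, and their part in the Car3 values was not tested. White adipocyte markers were 2-fold higher for 1 of 11, with a median of 0.19.

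**Figure D3:**
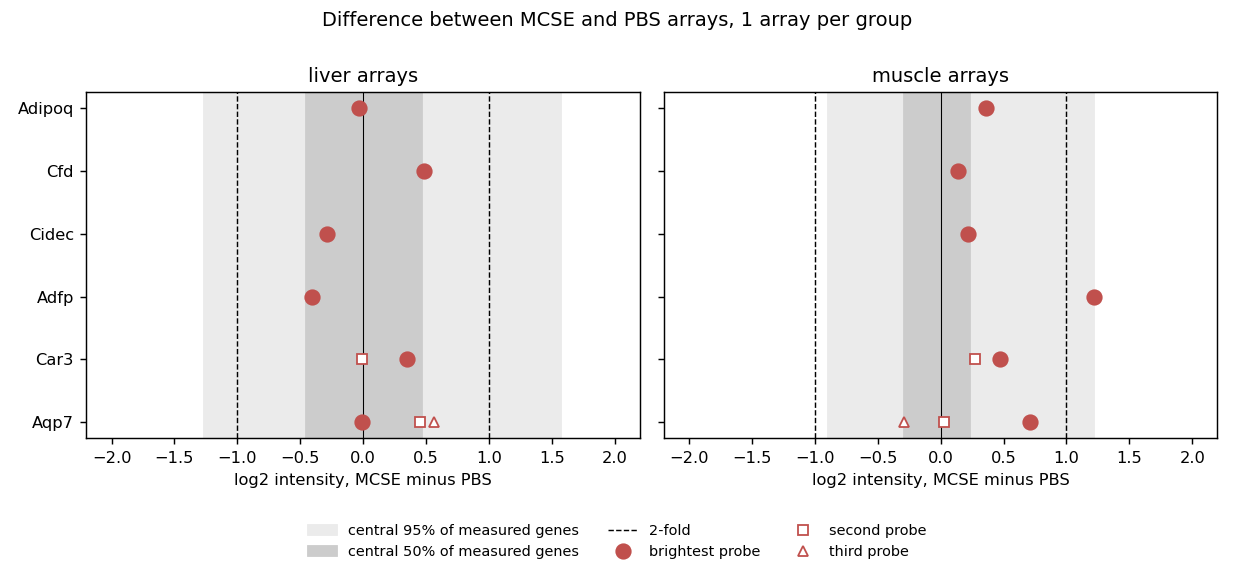
MCSE minus PBS difference of log2 intensity for every probe of the 6 genes on the liver arrays and the muscle arrays, 1 array per group; filled points are the brightest probes, shaded bands hold the central 50% and 95% of measured genes, and dashed lines mark 2-fold. Adfp on the muscle arrays, at 1.22, was the only point past 2-fold.

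For the other genes of the fat cell in muscle, counts past 2-fold are to be read against the 3.9% of all measured genes that were higher with MCSE and the 1.88% that were lower. Of 19 other droplet genes measured, 1 was 2-fold higher, Cideb (log2 9.86 on the MCSE array and 8.86 on the PBS array), a relative of Cidec, and 0 were lower. The list median was 0.12. Of 13 other secreted factors 0 were higher or lower (median -0.03), and the same held for 11 adipocyte regulators (median -0.08). Of 17 genes of fatty acid and glycerol handling, Pcx, which carboxylates pyruvate, was lower (11.49 with MCSE and 12.78 with PBS, -1.28). None of the other coat genes of the Plin family was 2-fold apart. Plin was at 0.41 as given above, M6prbp1 (now Plin3) was at -0.32, S3-12 (now Plin4) at -0.44 and 2310076L09Rik (now Plin5) at -0.36, the last 3 chosen for naming after their values were seen.

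For the liver arrays, counts in these lists are to be read against the 8.27% of all measured genes that were 2-fold higher with MCSE and the 6.01% that were lower. Of 12 adipocyte regulators, 4 were higher and 0 lower, with a median of 0.81 where all genes had -0.02. They were the coactivator Ppargc1a (1.74, and 0.56 on its other probe), Klf15 (1.65), Cebpa (1.24, and 0.74 on its other probe) and Cebpb (1.04). Of 18 genes of fatty acid and glycerol handling, 3 were higher and 0 lower, the monoacylglycerol acyltransferases Mogat2 (1.63) and Mogat1 (2.83-fold, with log2 levels of 12.15 with MCSE and 10.65 with PBS) and the fatty acid transporter Cd36 (1.61). Of 20 other droplet genes, 2 were higher and 0 lower, Plin (1.10) and 1110028A07Rik (1.09), with a median of 0.35. Of 13 other secreted factors, 1 was higher, Ccdc80 (1.12). The counts of these last 2 lists were near the share of all genes. On the same pair the kidney markers had a median of 1.01 and the slow muscle markers one of -1.47, as given above, and their part in the values of these lists was not tested. Plin thus stood at 12.26 with MCSE and 11.15 with PBS, while Adfp and Cidec of the same droplet group were lower with MCSE by less than the SD per probe.

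**Figure D4:**
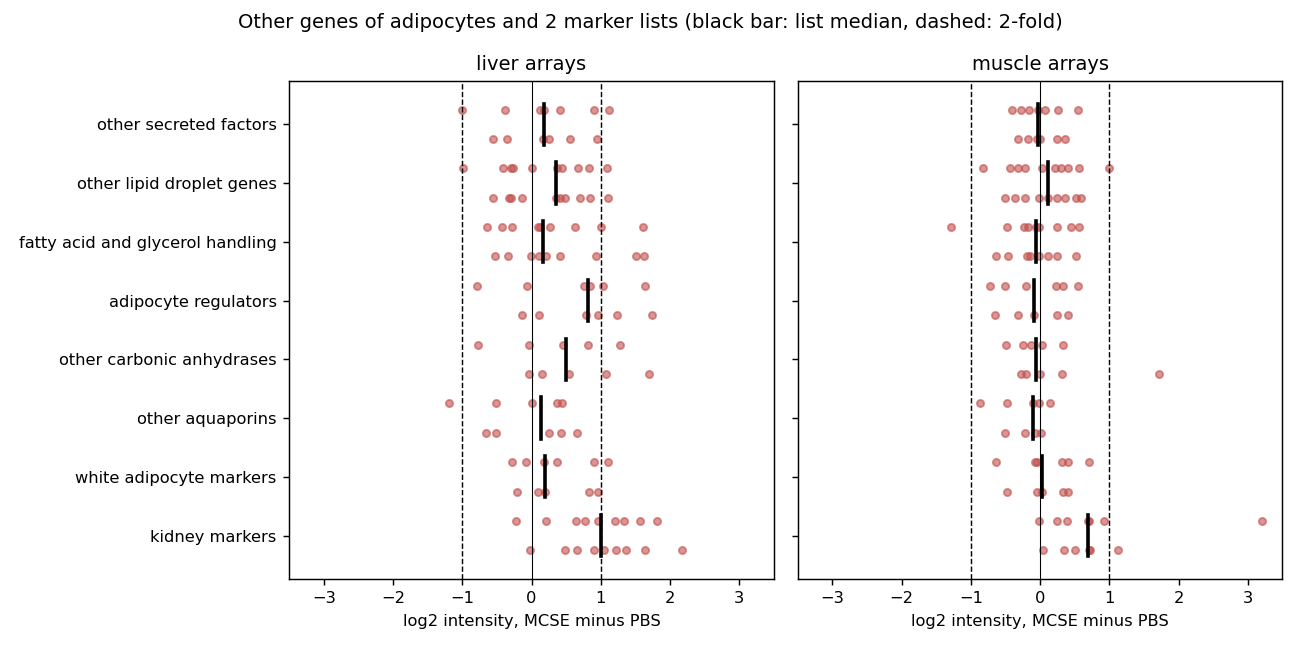
MCSE minus PBS difference of log2 intensity on the liver and muscle arrays for the measured genes of 6 further lists and of the white adipocyte and kidney markers; each point is 1 gene, black bars are list medians and dashed lines mark 2-fold. The median of the adipocyte regulators was 0.81 on the liver arrays and -0.08 on the muscle arrays, and that of the white adipocyte markers 0.19 and 0.02.

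The genes nearest to each member in profile over the 6 arrays were found by the root mean square distance of log2 values centred on each gene's own mean, among 13863 genes. Adipoq was nearest to Hibch (0.079), Dynlrb1 (0.106) and Ssr2 (0.126), and Cfd to Dpt (0.131), Tmsb4x (0.215) and 9130017C17Rik (0.216). Cidec was nearest to Apoe (0.151), Gpx1 (0.204) and Anxa1 (0.229). Adfp was nearest to Hrasls5 (0.176), Ugdh (0.243) and Srgn (0.279). Car3 was nearest to Hp (0.357), Ctsb (0.460) and Rps21 (0.468), and Aqp7 to 2410008K03Rik (0.140), Znrd1 (0.213) and 1110017F19Rik (0.227). No member was among the 3 nearest genes of another. The closest members were Cfd and Cidec, at 0.521, where Cidec had a median distance of 2.56 to all genes. Without the PBS adipose array, 3 of the 18 nearest genes were still nearest, Anxa1 for Cidec, Hrasls5 for Adfp and 2410008K03Rik for Aqp7. The closest members were then Adipoq and Car3, at 0.377, where Car3 had a median distance of 0.56 to all genes. Cfd and Cidec were then at 0.556.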

How the data were processed

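Per the labels' protocols, total RNA of 3 tissues was column-purified, and amplified targets carried Cy5 on one-colour arrays. The authors deposited normalized intensity values on a linear scale for 29922 probes and 6 arrays. The submitters' processing notes name limma, without version or role. How background was corrected and values normalized is not given in the sources used here. Without detection calls, precision is limited by the number of arrays. The platform annotation gave 1 gene symbol for 21020 probes, several for 0 and none for 8902. Symbols can be old, and list genes were matched through RefSeq synonyms.

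Log2 was taken after a floor at the 5th percentile (intensity 214.2). A gene was represented by its brightest probe (mean over 6 arrays). Groups came from the sample titles. MCSE and PBS were compared as differences only, with a 2-fold threshold. Labels liver and muscle were compared with limma 3.58.1 (R 4.3.3, lmFit and eBayes, 4 arrays, 2 per label, 2 residual degrees of freedom), with Benjamini-Hochberg adjustment over all genes at or over the overall median on any array used. The spread within a label holds any effect of MCSE. The fit was tested on simulated data. The members and lists were chosen with earlier results of these data known, among them that the adipose arrays are unlike, which is why they were left out of the fit. From each list the text names up to 4 genes with the steepest differences past the threshold, with all arrays compared at or above the 25th percentile. Other genes, and the dimmer probes of list genes, were chosen for naming with their values known. For likeness the 3 nearest genes were taken. Python 3.11.15, numpy 2.4.6, pandas 2.3.3 and matplotlib 3.10.9 were used.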

Additional observations from a re-analysis of the deposited data

Results flagged for a closer look

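On their brightest probes, 4 genes had a difference between MCSE and PBS of opposite sign in muscle and liver, with 1 array per group and no test of the gap. Adfp was at 1.22 in muscle and -0.41 in liver, a gap of 1.63 on the log2 scale. Aqp7 was at 0.71 and -0.01 (gap 0.72), Cidec at 0.22 and -0.29 (gap 0.51), and Adipoq at 0.36 and -0.03 (gap 0.39). The liver value of each of these genes lay within the SD per probe of 0.611, and so did the muscle values of Cidec and Adipoq within that of 0.517. The sign of Aqp7 on the liver arrays turned with the processing, to 0.0073 when differences were centred on their median and to 0.34 with the mean over its probes (0.15 in muscle). Its dimmest probe had the opposite signs, -0.29 in muscle and 0.56 in liver. With 1 array per group the signs alone cannot show that the tissues differ.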

How the results depend on the processing

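Counts of members past 2-fold were the same under quantile normalization, median centring, the mean over probes, 32 added before log2 and both other filters. The muscle difference of Adfp moved by less than the SD per probe, to 1.27 with centring and 1.19 with 32 added. The other settings could hardly move it, as Adfp has 1 probe, the arrays shared 1 distribution and filters alter no difference. At a 1.5-fold threshold 2 members were higher in muscle, with 1016 genes higher and 847 lower, and on the liver arrays 2275 and 2093. At 3-fold 0 members were higher in muscle, with 124 and 52 genes, and on the liver arrays 281 and 108. Aqp7 in muscle was at 0.15 with the mean over its probes, and between liver and muscle it turned to 0.80 (limma adjusted p 0.0722). Its log2 level became 9.10 on MCSE muscle, 10.69 on PBS adipose and 8.95 on PBS muscle. Between liver and muscle, all 6 arrays gave 0 members, 50 genes called and 0 called higher in liver. Leaving out 1 of the 4 arrays gave 1 to 4 members, 956 to 3769 genes called (956 without PBS muscle and 1061 without MCSE muscle) and 525 to 2184 called higher (525 and 624 without the same arrays). The fit then assumes that the lone array of a label varies like the other label. Of the values for single members over these alternatives, 67 kept direction and side of the threshold, 10 lost the call and 1 reversed. Car3 and Aqp7 had no call to lose, so all 10 fell on the 4 called genes. The 67 thus include values that could not lose one. Adfp lost its call without a filter on dim probes as well (limma adjusted p 0.0716). The labels carry no replicate numbers. Treatment as a term, which pairs the liver and muscle array of each treatment and leaves 1 residual degree of freedom, called 4098 genes and the same 4 members (limma adjusted p 7.32e-05 to 0.0112). Depth is unknown for arrays, and values near the top of the scale, such as Car3, limit what differences can show.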

Other observations

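The relatives of Car3 and Aqp7 were described in the same way. Of 12 other carbonic anhydrases tested, 5 were higher on the liver than on the muscle labels and 1 was lower (limma, 4 arrays), against 15.1% and 9.71% of all genes. Mitochondrial Car5b was higher by 3.53 ± 0.32, cytosolic Car2 by 2.72 ± 0.27 and Car12 by 2.06 ± 0.36, with adjusted p of 0.00189, 0.00226 and 0.011. With MCSE, 3 of 10 were at least 2-fold higher on the liver arrays, against 8.27% of measured genes, Car15 (1.70), Car14 (1.28) and Car4 (1.08). In muscle 1 of 10 was, against 3.9% of measured genes. It was Car10 (1.72), which lay at 9.94 on the MCSE array and 8.21 on the PBS array, below the lower quartile there. Kidney markers were 2-fold higher for 9 of 18 on the liver pair, and their part in the carbonic anhydrase values was not tested.

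Of 11 other aquaporins tested, 2 were higher in liver, near the 15.1% of all genes, and 0 were lower, among them Aqp2, the water channel of the kidney collecting duct, by 1.28 ± 0.33 (limma adjusted p 0.0338). In the fit of all 6 arrays 0 aquaporins and 0 carbonic anhydrases were called. With MCSE, 1 of 10 was 2-fold lower on the liver arrays, Aqp5 (8.92 with MCSE and 10.11 with PBS), against 6.01% of measured genes. In muscle 0 of 9 measured reached 2-fold, against 5.78% of measured genes in either direction.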
